A study of Mus musculus with 26 samples.

Results

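The 9 genes described here encode the core of major histocompatibility complex (MHC) class I antigen presentation in the mouse: H2-K1, H2-D1, H2-T23, B2m, Tap1, Tap2, Tapbp, Nlrc5 and Erap1. They were taken by name from the 45318 genes counted by RNA-seq, with no threshold on their values. The RNA came from 4T1 cells, an aggressive triple-negative mammary carcinoma line of BALB/c mice, with or without the nuclear long non-coding RNA MaTAR25. There were 2 libraries of 4T1 control cells, labelled wild type and, per the study's methods, given a guide against Renilla luciferase. There were 3 libraries of MaTAR25 KO1 and 4 of MaTAR25 KO2, both MaTAR25-/-, in which CRISPR/Cas9 removed the region over the MaTAR25 transcription start. Each knockout was a line grown from a single cell, and the labels do not say that its libraries came from separate cultures. In the tests of KO1, KO2 or their difference, a p-value therefore measured the spread between libraries within a group, not between clones. In the test of both knockouts joined, that spread also held the difference between the 2 clones. A difference between KO1 and KO2 was a difference between clones. The methods describe single-cell control clones as well, so a difference from control may also be one between clones. No animal or tumour tissue entered these comparisons.

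MHC class I molecules show peptides from inside the cell to cytotoxic T cells. A polymorphic heavy chain (H2-K1 and H2-D1 in the mouse) pairs with the invariant light chain beta-2-microglobulin, made by B2m. The proteasome cuts proteins into peptides, the Tap1 and Tap2 transporter carries them into the endoplasmic reticulum, Erap1 trims them, and tapasin (Tapbp) holds the empty class I molecule at the transporter until a peptide is bound. Nlrc5 is a transcriptional activator of these genes, and interferon-gamma induces most of them. Reduced presentation by this route is a well-known way in which tumour cells avoid T cells.

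Of the 9 genes, 6 lie on mouse chromosome 17 in or near the MHC. In GRCm38 with GENCODE vM21, Tapbp is at chr17:33915899-33929292, H2-K1 at chr17:33996017-34000347, Tap1 at chr17:34187553-34197225 and Tap2 at chr17:34203527-34216321. H2-D1 is at chr17:35262730-35267499 and H2-T23 at chr17:36029773-36032855. B2m is at chr2:122147686-122153083, Nlrc5 at chr8:94434356-94527272 and Erap1 at chr13:74639568-74693201. All 9 are annotated as protein-coding.

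The 250 bases upstream of the RefSeq transcript start were read for the 7 of 9 genes with an entry in the RefSeq promoter table for GRCm38.p6. Tap2 and Nlrc5 had none. The classical heavy chain genes, the light chain gene, the transporter gene Tap1 and the non-classical gene H2-T23 are shown, because these classes of gene are set side by side below. Capitals mark 3 motifs, searched on both strands: the core of the X2 box (TGACG), the CCAAT box to which NF-Y binds, and the interferon response element pattern TTTCNNTTTC. All are written 5′ to 3′ on the strand of the gene. H2-K1 was on the minus strand at chr17:34000348-34000597, H2-D1 on the plus strand at chr17:35262844-35263093, B2m on the plus strand at chr2:122147437-122147686, Tap1 on the plus strand at chr17:34187306-34187555 and H2-T23 on the minus strand at chr17:36032702-36032951.
H2-K1: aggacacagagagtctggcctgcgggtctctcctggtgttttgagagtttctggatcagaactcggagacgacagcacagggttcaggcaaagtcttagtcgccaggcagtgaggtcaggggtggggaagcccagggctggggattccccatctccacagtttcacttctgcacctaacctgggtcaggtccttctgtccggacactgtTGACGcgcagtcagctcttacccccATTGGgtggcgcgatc
H2-D1: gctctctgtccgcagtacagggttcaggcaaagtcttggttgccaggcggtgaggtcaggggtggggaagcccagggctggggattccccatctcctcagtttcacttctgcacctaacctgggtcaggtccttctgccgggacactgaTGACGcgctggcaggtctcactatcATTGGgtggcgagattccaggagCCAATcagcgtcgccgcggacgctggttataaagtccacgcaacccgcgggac
B2m: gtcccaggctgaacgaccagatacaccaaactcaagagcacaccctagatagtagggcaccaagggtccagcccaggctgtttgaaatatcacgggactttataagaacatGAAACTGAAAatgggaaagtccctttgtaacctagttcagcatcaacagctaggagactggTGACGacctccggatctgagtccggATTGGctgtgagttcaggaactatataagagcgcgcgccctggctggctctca
Tap1: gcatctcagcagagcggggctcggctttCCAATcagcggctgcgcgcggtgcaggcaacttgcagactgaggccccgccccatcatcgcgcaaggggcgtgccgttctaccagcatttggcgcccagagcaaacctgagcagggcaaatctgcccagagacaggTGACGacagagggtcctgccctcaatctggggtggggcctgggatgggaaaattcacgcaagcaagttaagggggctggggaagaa
H2-T23: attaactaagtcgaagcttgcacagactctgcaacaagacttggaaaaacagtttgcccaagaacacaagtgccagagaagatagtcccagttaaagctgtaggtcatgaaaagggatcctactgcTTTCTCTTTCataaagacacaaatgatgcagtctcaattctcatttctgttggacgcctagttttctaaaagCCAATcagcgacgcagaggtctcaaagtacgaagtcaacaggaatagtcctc
The X2 core was found in 4 of the 7 promoters (H2-K1, H2-D1, B2m and Tap1) and in 17.8% of all 32851 promoters of the table. The CCAAT box was found in 6 of the 7, all but Erap1, against 33.8% of all promoters. The interferon response element pattern was found in 2 of the 7, B2m and H2-T23, against 2.98% of all promoters. H2-K1 and H2-D1 shared an unbroken run of 47 bases that begins 141 and 201 bases before their RefSeq starts, followed in both by the X2 core and then the CCAAT box. The Tap1 window spans the whole gap to Psmb9, an immunoproteasome gene that starts 226 bases away and is read in the opposite direction. A match is a run of letters in a window, not a measured site. An exact pattern misses variants, so a window without a match may still hold such an element.

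H2 class I genes resemble one another so closely that part of each transcript cannot be assigned to one gene. The counting kept only reads with a single best alignment, so reads from shared stretches were lost. Of all 75-base windows within the exons of H2-K1, 93.4% occurred at 1 place in the 21 chromosomes searched, against 93.0% for H2-D1 and 82.9% for H2-T23. Every such window of B2m, Tap1, Tap2, Nlrc5 and Erap1 occurred at 1 place, and 98.9% of those of Tapbp did. In windows of 50 bases the shares fell to 83.7% for H2-K1, 85.5% for H2-D1 and 67.2% for H2-T23. One coding window from each of the 3 heavy chain genes is shown, taken where the number of places in the genome was highest; the H2-K1 window is chr17:33997435-33997509 (minus strand), the H2-D1 window chr17:35265831-35265905 (plus strand) and the H2-T23 window chr17:36030910-36030984 (minus strand).
H2-K1: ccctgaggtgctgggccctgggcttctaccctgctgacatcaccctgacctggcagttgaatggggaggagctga
H2-D1: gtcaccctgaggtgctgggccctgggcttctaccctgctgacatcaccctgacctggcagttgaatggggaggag
H2-T23: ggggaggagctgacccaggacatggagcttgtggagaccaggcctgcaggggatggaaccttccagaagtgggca
Each of these 75-base stretches was found, letter for letter, at 9 places, so a read lying within it could not be counted for its gene. The H2-K1 and H2-D1 windows overlap in their letters. The reference genome is that of C57BL/6, which carries another MHC haplotype than BALB/c, so levels of H2 genes here are levels against a foreign allele, and the effect of this on their counts was not tested.

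Depth was high for all 9 genes. The libraries held 25367211 to 61110585 reads counted in genes, and 24.1% to 27.5% of all read records had more than 1 alignment, least in the controls and most in KO2. MaTAR25 (1200007C13Rik) was at 0.768 and 0.915 counts per 1000000 (CPM, scaled by TMM, the trimmed mean of M-values) in the controls, at 0.0319, 0.232 and 0 in KO1, and at 0.307, 0.0421, 0.204 and 0.123 in KO2. It was lower than control in every knockout library. The epithelial markers summed to 1495 CPM or more in each library, whereas 6 of 9 leukocyte markers, Ptprc, Cd3e, Adgre1, Itgax and Lyz2 among them, stayed under 1 CPM in all 9 libraries. The summed level of the leukocyte list was 16.3 to 16.9 CPM in control, 34.5 to 51.4 in KO1 and 5.60 to 29.3 in KO2, mostly from the other 3 genes of the list.

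Compared per kilobase of exon, the light chain was the most abundant transcript. In control cells B2m reached 290.2 ± 28.7 CPM per kilobase (SD, n = 2), H2-D1 155 ± 14.5, H2-K1 80.1 ± 4.89 and Tapbp 31.3 ± 2.39. H2-T23 (17.96 ± 3.20) and Tap2 (16.9 ± 4.43) overlapped, and were followed by Erap1 (6.38 ± 0.00952), Tap1 (4.11 ± 1.10) and Nlrc5 (0.703 ± 0.139). All other neighbours in this order had separate ranges in the 2 control libraries. Tap2 stood above its partner Tap1 in both control libraries. In KO1 the order was the same except that Tap2 (19.6 ± 4.84, n = 3) and H2-T23 (16.1 ± 1.18), which again overlapped, changed places. In KO2 the ranges of B2m and H2-D1, and of H2-D1 and H2-K1, also overlapped. Below Tapbp, H2-T23 was at 8.07 ± 2.23 CPM per kilobase (n = 4), Tap2 at 4.89 ± 2.44, Erap1 at 4.76 ± 2.57 and Nlrc5 at 3.76 ± 3.43, each overlapping the next. Tap1 stood last in KO2 at 1.17 ± 0.585 CPM per kilobase, its range overlapping that of Nlrc5. Over the longest transcript in place of all exons, H2-K1 came to 126 CPM per kilobase in control, still below H2-D1 at 190.3.

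**Figure D1:**
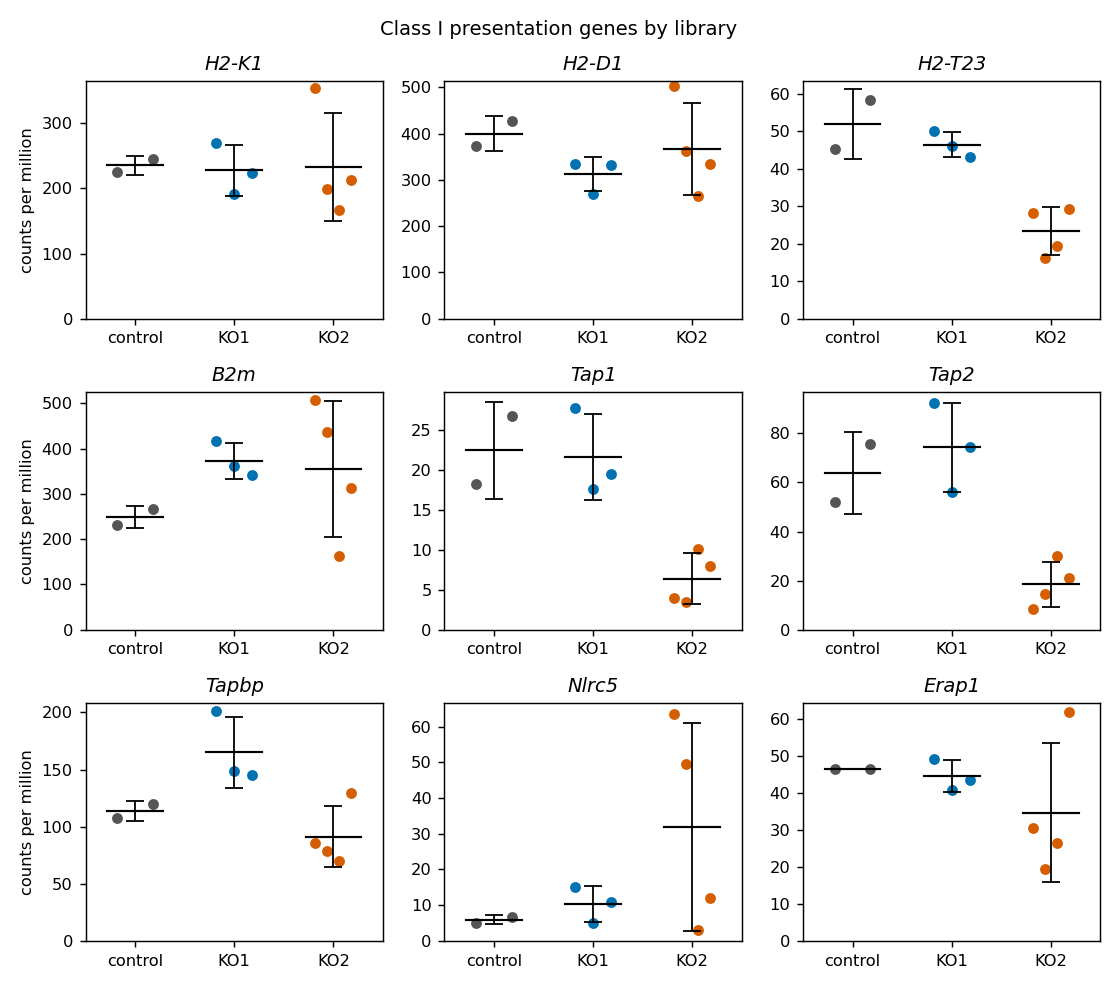
Expression of the 9 class I presentation genes in each library, in TMM-scaled CPM (linear axes from 0). Points are single libraries of control (n = 2), KO1 (n = 3) and KO2 (n = 4); bars are the mean with the SD. Tap1, Tap2 and H2-T23 lie lower in all 4 KO2 libraries than in any control or KO1 library, H2-K1 and H2-D1 overlap between control and KO2, and Nlrc5 spreads from 2.92 to 63.5 CPM within KO2.

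The comparison of all 7 knockout libraries with the 2 controls asks what differed from control in both clones together. The 7 libraries came from 2 clones and are not 7 separate knockouts. None of the 9 genes passed: edgeR's quasi-likelihood test called 0 at an adjusted p below 0.1, 0 had an unadjusted p below 0.05, and DESeq2 also called 0. Of all 15023 genes tested, 22.6% were called, 11.9% higher and 10.7% lower. The median log2 fold change of the 9 genes was -0.22, beside 0.06 over all tested genes, with 3 above 0 and 6 below. The values are given clone by clone below.

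Neither classical heavy chain passed the test in either clone. H2-K1 was at 225 and 246 CPM in control, at 269, 191 and 224 in KO1, and at 355, 198, 167 and 214 in KO2. The first KO2 library was the highest and another KO2 library the lowest of all 9. Its log2 fold change in edgeR came to -0.05 ± 0.29 (SE; adjusted p = 0.923) for KO1 and -0.01 ± 0.28 (adjusted p = 0.979) for KO2. H2-D1 was at 374 and 426 CPM in control, at 334, 271 and 333 in KO1, and at 502, 363, 266 and 334 in KO2. All KO1 libraries lay below both controls, while KO2 lay on either side of them. Its log2 fold change was -0.36 ± 0.24 in KO1 (edgeR, adjusted p = 0.312) and -0.13 ± 0.23 in KO2 (adjusted p = 0.718).

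Counts of H2-K1 and H2-D1 together made up most of the class I heavy chain signal. H2-D1 took 38.1% to 50.9% and H2-K1 26.6% to 31.1% of the counts of the 30 H2 class I genes in the files, of which 7 had no count in any library. The sum over those 30 genes does not depend on how reads are split among them. It does not recover lost shared reads, and it leaves out similar genes outside the 30, such as Gm11127. By this sum KO1 stood at -0.16 ± 0.27 and KO2 at -0.16 ± 0.26 on the log2 scale against control (edgeR, adjusted p = 0.708 and 0.682). The difference between the clones was 0.00 ± 0.23. By the root mean square difference of log2(CPM + 1) from the control mean over the 9 libraries, the pattern of H2-K1 was most like those of Gm11127 (0.0809), H2-Q10 (0.123), Cables2 (0.143), H2-K2 (0.145) and H2-Q5 (0.155), out of 12028 genes that averaged 1 CPM or more. The 9 genes described here were left out of this and the later rankings of likeness. H2-Q10, H2-K2 and H2-Q5 are themselves H2 class I genes and share 75-base windows with H2-K1. Gm11127 is among the genes at the places of the H2-K1 window printed above.

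B2m, the shared light chain, was higher in most knockout libraries without passing the test. It was at 232 and 267 CPM in control, at 418, 361 and 341 in KO1, and at 507, 436, 164 and 313 in KO2. Each KO1 library and 3 of 4 KO2 libraries exceeded both controls, and the third KO2 library was the lowest of all 9. The log2 fold change was 0.58 ± 0.38 in KO1 (edgeR, adjusted p = 0.298) and 0.51 ± 0.36 in KO2 (adjusted p = 0.336). Without the third KO2 library the KO2 value was 0.75 ± 0.21, which passed at adjusted p = 0.0310. That was the extreme of the fits that left out each control or KO2 library in turn. They gave 0.29 to 0.75 (edgeR, adjusted p from 0.0310 to 0.651). Per count of the 30 summed heavy chain genes there were 0.286 and 0.289 B2m counts in control, 0.476, 0.545 and 0.432 in KO1, and 0.445, 0.611, 0.301 and 0.446 in KO2. All 7 knockout libraries lay above both controls on this ratio within a library, the third KO2 library by little; the ratio was chosen after the values were seen and was not tested. Among the 5 genes most like B2m over the 9 libraries were Me1 (0.179), Rnf7 (0.230), Ttk (0.230) and Zfp651 (0.232), none of these in the lists of this pathway.

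H2-T23 encodes Qa-1, a non-classical class I molecule that presents peptides from the leaders of other class I chains to the inhibitory receptor NKG2A on natural killer and T cells. It was at 45.3 and 58.4 CPM in control, at 49.99, 46.1 and 43.2 in KO1, and at 28.2, 16.3, 19.5 and 29.3 in KO2. The 4 KO2 libraries lay below all others, and KO1 overlapped control. H2-T23 fell by 1.15 ± 0.24 on the log2 scale in KO2 (edgeR, adjusted p = 0.0105), to 44.9% of the control mean. In KO1 the log2 fold change was -0.16 ± 0.26 (adjusted p = 0.699). The difference between the clones, KO1 over KO2, was 0.99 ± 0.22 (adjusted p = 0.0233). Its share of unique 75-base windows, 82.9%, was the lowest of the 9 genes. An antisense gene at its locus, A930015D03Rik, had at most 2 counts in any library.

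Of the 9 genes, Tap1 and Tap2 had the largest changes among those that edgeR called in KO2. Tap1 was at 18.2 and 26.8 CPM in control, at 27.7, 17.6 and 19.5 in KO1, and at 4.02, 3.45, 10.11 and 8.03 in KO2. All 4 KO2 libraries lay below every other library, while KO1 and control overlapped. Tap1 fell by 1.81 ± 0.42 on the log2 scale in KO2 (edgeR, adjusted p = 0.0150), to 28.5% of the control mean. In KO1 the log2 fold change was -0.05 ± 0.45 (adjusted p = 0.942), and KO1 exceeded KO2 by 1.75 ± 0.38 (adjusted p = 0.0223).

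Tap2, the partner that forms the transporter with Tap1, followed the same division. It was at 52.0 and 75.7 CPM in control, at 92.5, 55.9 and 74.3 in KO1, and at 8.37, 14.4, 29.9 and 21.3 in KO2. Again the KO2 libraries were the 4 lowest, and KO1 overlapped control. Tap2 fell by 1.78 ± 0.41 on the log2 scale in KO2 (edgeR, adjusted p = 0.0146), to 28.96% of the control mean, against a log2 fold change of 0.22 ± 0.45 in KO1 (adjusted p = 0.759). The clones differed by 2.003 ± 0.38 (adjusted p = 0.0141). Within KO2 the first and second libraries were the lower pair for both Tap1 and Tap2.

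Tapbp, which encodes tapasin, passed the test between the clones but not in either clone against control. It was at 107 and 120 CPM in control, at 201, 149 and 145 in KO1, and at 85.5, 79.0, 70.3 and 130 in KO2. Every KO1 library lay above both controls and above every KO2 library, and the fourth KO2 library lay above the controls. The log2 fold change was 0.54 ± 0.26 in KO1 (edgeR, adjusted p = 0.168) and -0.31 ± 0.25 in KO2 (adjusted p = 0.382). The difference, KO1 over KO2, was 0.86 ± 0.22 (adjusted p = 0.0358), and was 0.69 ± 0.23 without the first KO1 library, which did not pass (adjusted p = 0.133). Tapbp overlaps Zbtb22 on the same strand, which had 989 to 3325 counts.

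Erap1, the aminopeptidase that trims peptides, was at 46.5 and 46.4 CPM in control, at 49.2, 40.8 and 43.4 in KO1, and at 30.6, 19.5 and 26.6 in the first 3 KO2 libraries but 61.9 in the fourth. KO1 straddled control, and the fourth KO2 library was the highest of all. The log2 fold change was -0.06 ± 0.40 in KO1 (edgeR, adjusted p = 0.927) and -0.42 ± 0.37 in KO2 (adjusted p = 0.441). Without the fourth KO2 library it was -0.86 ± 0.21 in KO2, which passed (adjusted p = 0.0223). Leaving out each control or KO2 library in turn gave -0.86 to -0.23 (edgeR, adjusted p from 0.0223 to 0.678). Erap1 overlaps Cast on the opposite strand, which had 3153 to 9321 counts. The library kit named in the methods does not mark the strand, so reads from the overlap cannot be told apart.

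Nlrc5, the activator of class I transcription, was the most variable of the 9. It was at 5.14 and 6.80 CPM in control, at 15.2, 4.94 and 10.8 in KO1, and at 63.5, 49.6, 2.92 and 11.9 in KO2. The first and second KO2 libraries were far above the rest, and the third was the lowest of all 9, a range of 21.8-fold within the clone. The log2 fold change was 0.80 ± 1.00 in KO1 (edgeR, adjusted p = 0.601) and 2.42 ± 1.05 in KO2 (adjusted p = 0.126). DESeq2 called it in KO2 at adjusted p = 0.0841, and without the third KO2 library edgeR did so at 2.80 ± 0.72 (adjusted p = 0.0233). With each control or KO2 library left out in turn, the range was 1.84 to 2.80 (edgeR, adjusted p from 0.0233 to 0.405). The KO2 libraries with the most Nlrc5 were those with the least Tap1 and Tap2.

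**Figure D2:**
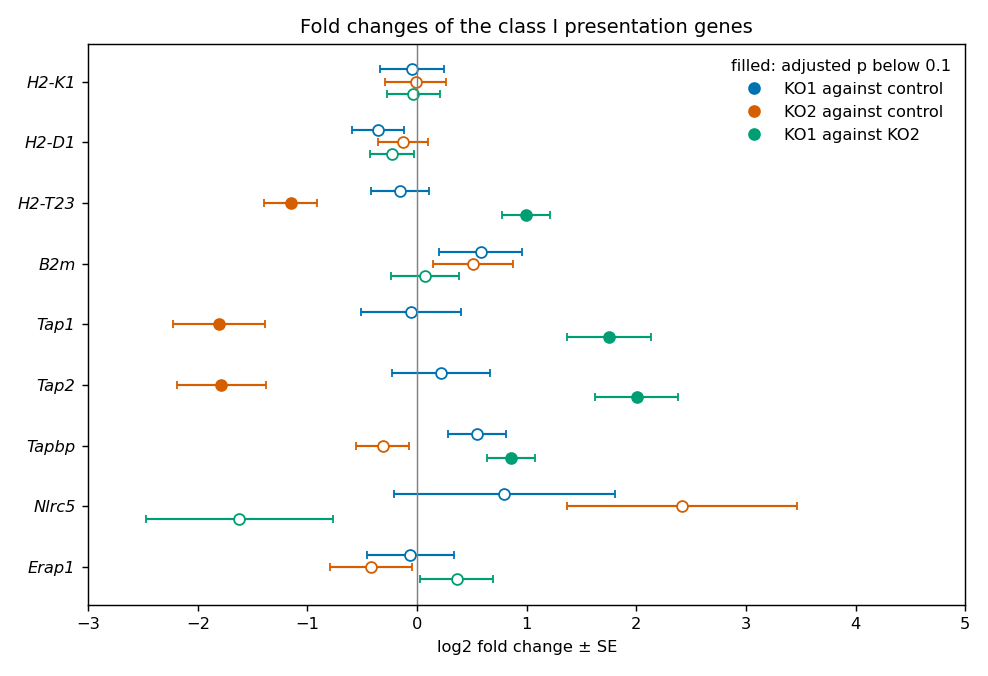
Log2 fold change with its standard error for each of the 9 genes in KO1 against control, KO2 against control, and KO1 against KO2, from one edgeR fit of all 3 groups. Filled points passed at an adjusted p below 0.1. Tap1, Tap2 and H2-T23 are filled for KO2 and for the clone difference, Tapbp for the clone difference, and every KO1 point is open.

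Counted over the 9 genes, the edgeR test called 0 in KO1 against control, where 0 had an unadjusted p below 0.05, DESeq2 also called 0, and 31.6% of all tested genes were called, 15.9% higher and 15.7% lower. The median log2 fold change was -0.05 in KO1, beside 0.02 over all genes. In KO2 against control 3 of 9 were called lower (Tap1, Tap2 and H2-T23) and 0 higher, where 15% of all tested genes were called lower, 16.5% higher and 31.4% in either direction. The median was -0.31, beside 0.03 over all genes. Between the clones 4 of 9 were higher in KO1 and 0 lower, where 9.43% of all genes were called higher and 19.6% in either direction; the median was 0.36, beside -0.02. These 3 comparisons share libraries and are not independent of one another.

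The libraries of 2 groups can also be compared by whether they overlap. Against control, 3 of the 9 lay wholly apart in KO1 (B2m and Tapbp above, H2-D1 below), where 66.9% of all tested genes lay wholly apart, 33.2% above and 33.7% below. In KO2 3 of 9 (Tap1, Tap2 and H2-T23) lay wholly below control, where 24.1% of all genes lay below, 22.8% above and 46.9% apart in either direction. Between the clones 4 of 9 (these 3 and Tapbp) lay wholly higher in KO1, where 12.6% of all genes did, 11.9% lay lower and 24.5% lay apart in either direction. Over all knockout libraries together 0 of 9 lay apart from control, beside 34.4% of all genes, 16.9% above and 17.6% below. In the two-sided exact permutation test of log2(CPM + 1), Tap1, Tap2 and H2-T23 each gave p = 0.0667 in KO2 against control, which is the smallest that 4 libraries against 2 allow. Each of these 3 gave p = 0.0286 between the clones, the smallest that 3 against 4 allow, and Tapbp gave p = 0.0571 by the same exact test. No member could go below p = 0.1 in the exact permutation test of KO1 against control. The KO2 calls depended on the second control library: without it the log2 fold changes were -1.50 for Tap1, -1.49 for Tap2 and -0.95 for H2-T23, and none passed (edgeR, adjusted p = 0.146, 0.140 and 0.129). The clone difference of these 3 genes passed in every fit that left out 1 knockout library.

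The genes around the transporter were examined along the chromosome, a choice made after the values were seen. Tap1 and Tap2 stand in a block with the immunoproteasome genes Psmb9 and Psmb8, which encode catalytic subunits that replace those of the ordinary proteasome and favour peptides suited to class I. The order is Psmb9, Tap1, Psmb8, Tap2. Psmb9 was at 6.30 and 12.7 CPM in control, at 14.9, 8.62 and 8.82 in KO1, and at 0.837, 0.969, 2.74 and 2.37 in KO2. Psmb8 was at 21.4 and 26.0 CPM in control, at 57.3, 34.4 and 51.2 in KO1, and at 3.12, 5.10, 6.60 and 5.83 in KO2. For both, all 4 KO2 libraries lay below every other library, and for Psmb8 all KO1 libraries lay above the controls. Psmb9 fell by 2.44 ± 0.51 on the log2 scale in KO2 (edgeR, adjusted p = 0.0102) and Psmb8 by 2.19 ± 0.30 (adjusted p = 0.00185). In KO1 Psmb8 rose by 1.01 ± 0.33 (adjusted p = 0.0548), and the clones differed by 3.20 ± 0.28 (adjusted p = 0.000785).

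Of the 8 nearest tested genes outside the block, 4 were called lower in KO1 against control and 4 in KO2, and 0 higher in either, where 15.7% and 15% of all tested genes were lower. Col11a2 (log2 fold change -3.64 in KO1 and -3.62 in KO2), Gm20493 (-3.14 and -1.72) and H2-Ab1, a class II chain (-4.73 and -5.59), were lower in both clones. Brd2 was not called in either clone, with log2 fold changes of -0.33 ± 0.23 in KO1 and -0.27 ± 0.22 in KO2. H2-DMa, a class II loading gene, fell by 2.03 ± 0.43 in KO1 (edgeR, adjusted p = 0.0101) and was at -0.61 ± 0.40 in KO2, so that it was lower in KO1 than in KO2 by 1.42 ± 0.38 on the log2 scale (adjusted p = 0.0416). Of these 8 genes 1 was higher in KO1 than in KO2 and 2 were lower, where 9.43% of all genes were higher and 19.6% were called in either direction. The one that was higher, Gm15821, lies within Tap2 on the opposite strand, so its reads and those of Tap2 cannot be told apart. It was also among the neighbours lower in KO2 against control (-1.45 ± 0.51, edgeR, adjusted p = 0.0691). The 2 that were lower, H2-DMa and Gm20493, overlap in the same way, with Gm20493 inside H2-DMa on the opposite strand. Both were also counted as lower in KO1 against control, so the neighbour counts may hold the same reads under more than 1 gene. Tap1 and Psmb9 overlap at their starts in the annotation, also on opposite strands. Btnl7-ps and Notch4, the outermost neighbours on the Tap2 side, were not called in either clone. Their group means were only 0.253 to 0.284 and 0.381 to 0.569 CPM, so the missing calls do not show where a change ends. Gm20493 and H2-Ab1 were also low, with control means of 1.14 and 1.42 CPM.

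**Figure D3:**
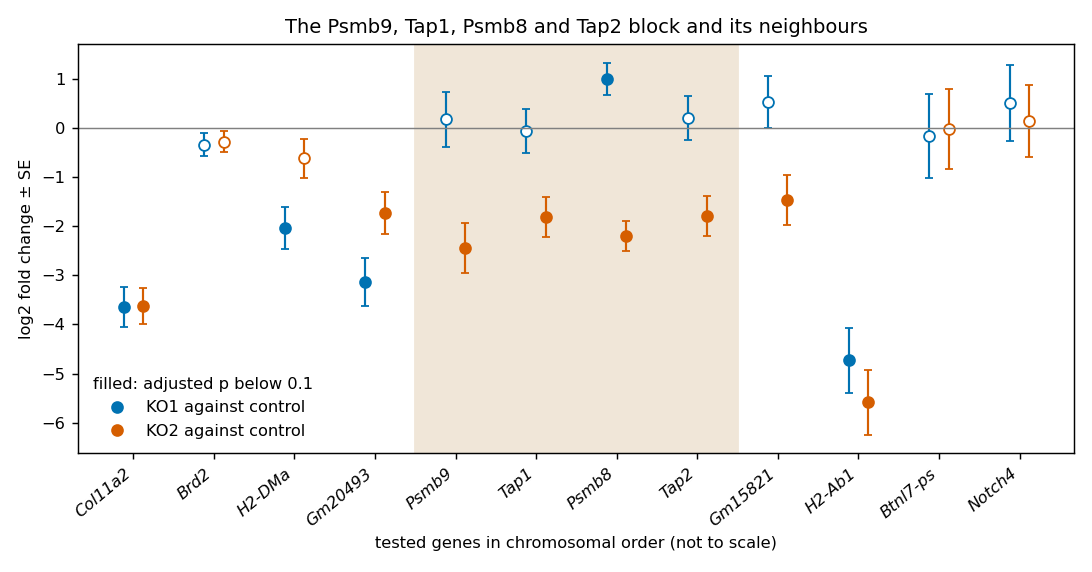
Log2 fold change with its standard error in KO1 and KO2 against control for Psmb9, Tap1, Psmb8 and Tap2 (shaded) and the 4 nearest tested genes on each side, in chromosomal order and not to scale. Filled points passed at an adjusted p below 0.1. All 4 shaded genes lie between -2.44 and -1.78 in KO2 and between -0.05 and 1.01 in KO1; outside, Col11a2, Gm20493 and H2-Ab1 are filled and lower in both clones, and Brd2, Btnl7-ps and Notch4 are open in both.

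Among genes other than the members, which were not ranked, the same measure of likeness named Psmb9 as closest to Tap1 over the 9 libraries. Its root mean square difference was 0.240. It was followed by Pls1 (0.279), Tapbpl (0.291), Cebpb (0.326) and Bst1 (0.369). Tapbpl encodes TAPBPR, a tapasin-related protein that edits peptides on class I molecules. It was at 27.8 and 30.6 CPM in control, at 35.4, 33.4 and 27.1 in KO1, and at 4.57, 5.10, 8.55 and 10.51 in KO2. It fell by 2.02 ± 0.32 on the log2 scale in KO2 (edgeR, adjusted p = 0.00334), and the clones differed by 2.15 ± 0.29 (adjusted p = 0.00474). Tapbpl lies apart from the Tap1 block, on another chromosome.

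Of 26 further genes for peptide generation, loading and folding, 26 were tested, and 7 rose and 2 fell over both knockouts together, where 11.9% of all tested genes rose and 10.7% fell. Their median log2 fold change was 0.34, beside 0.06 over all genes. Thop1, a cytosolic peptidase that degrades peptides, rose by 1.39 ± 0.28 on the log2 scale (edgeR, adjusted p = 0.0111). Sec61b, a subunit of the translocation channel of the endoplasmic reticulum, rose by 0.92 ± 0.26 (adjusted p = 0.0388). Ide, the insulin-degrading enzyme, rose by 0.79 ± 0.18 and the leucine aminopeptidase Lap3 by 0.70 ± 0.19 (adjusted p = 0.0186 and 0.0367). Hspa5, the chaperone BiP, fell by 0.91 ± 0.26 (adjusted p = 0.0394). Psmb8, Psmb9 and Tapbpl were not among the genes called over both knockouts.

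The clones differed in 7 of these 26 genes, 5 higher in KO1 and 2 lower (P4hb and Uggt1), where 9.43% of all genes were higher and 19.6% were called in either direction. The 5 were Psmb8, Psmb9, Tapbpl, Psme1 and Psme2, named after their values were seen. Psme1 and Psme2, which form the proteasome activator PA28, differed by 1.02 ± 0.31 and 0.90 ± 0.23 on the log2 scale (edgeR, adjusted p = 0.0635 and 0.0373). Psmb10, the remaining catalytic subunit of the immunoproteasome, had a difference of 0.73 ± 0.27 that did not pass (adjusted p = 0.111). Calr, the chaperone calreticulin of the peptide loading complex, was not among the 7. It rose in KO2 by 1.27 ± 0.37 (edgeR, adjusted p = 0.0373), opposite in direction to Tap1 and Tap2 in the same libraries. In KO1 its log2 fold change was 0.65 ± 0.38, which did not pass (adjusted p = 0.238). All knockout libraries of both clones lay above both controls for Calr, as for 16.9% of all tested genes.

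Among 20 regulators of class I genes, 1 was higher and 3 were lower over both knockouts, a share close to the 22.6% called among all tested genes. Irf2, an interferon regulatory factor, fell by 0.97 ± 0.13 on the log2 scale (edgeR, adjusted p = 0.00215). Creb1, which belongs to the family that binds the X2 box, fell by 0.68 ± 0.14 (adjusted p = 0.0126), and the cytokine receptor kinase Jak1 fell by 0.63 ± 0.22 (adjusted p = 0.0865). Nfya, a subunit of NF-Y, rose by 0.47 ± 0.15 (adjusted p = 0.0567). Between the clones 4 of 20 were higher in KO1 and 0 lower, where 9.43% of all genes were higher and 19.6% were called in either direction. Irf1, Rfx5 and Ifngr2 were among the 4, again named after their values were seen. Irf1, an interferon-induced activator of class I genes, was at 91.8 and 88.9 CPM in control, at 142, 153 and 102 in KO1, and at 16.7, 17.6, 29.1 and 51.1 in KO2. All KO2 libraries lay below control and all KO1 libraries above it. Irf1 fell by 1.65 ± 0.39 on the log2 scale in KO2 (adjusted p = 0.0167), and the clones differed by 2.21 ± 0.36 (adjusted p = 0.00889).

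**Figure D4:**
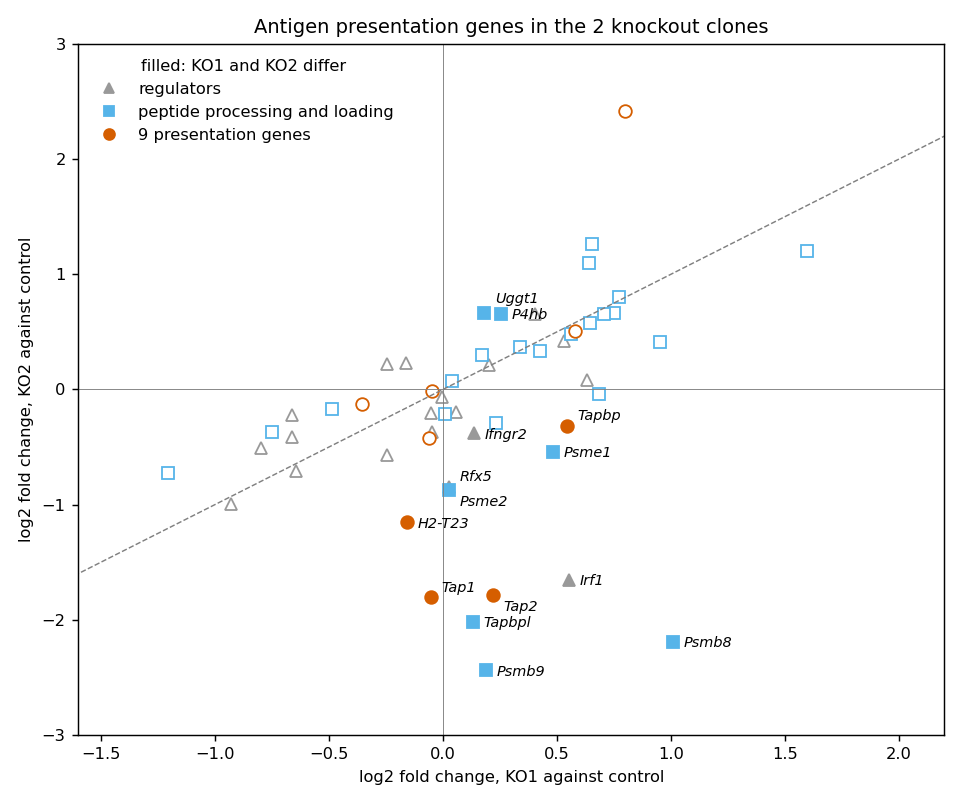
Log2 fold change in KO2 against control (vertical) over that in KO1 against control (horizontal) for the 9 presentation genes (circles), 26 processing and loading genes (squares) and the regulators (triangles), without 1 that is not reported here. Both axes use the same 2 control libraries, so control error moves a point along the dashed line of equality; filled and named genes differed between KO1 and KO2 at an adjusted p below 0.1. Tap1, Tap2, Tapbpl, Psmb8, Psmb9 and Irf1 lie farthest below the line.

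Of the other H2 class I genes, 17 of the 30 in the files, the members included, passed the filter on low counts. In KO2 1 of the 17 was lower, H2-T23 itself, where 15% of all genes were lower. Between the clones 4 of the 17 were higher in KO1, where 9.43% of all genes were. Besides H2-T23 these were H2-T22, H2-T24 and H2-T-ps, chosen here after their values were seen, with differences of 0.83 ± 0.24, 1.72 ± 0.39 and 1.24 ± 0.37 on the log2 scale (adjusted p = 0.0561, 0.0241 and 0.0584). All 4 belong to the H2-T group of genes and none is a classical heavy chain. H2-T10, also of that group, was tested and not called, with a difference of 0.76 ± 0.30 (edgeR, adjusted p = 0.130). Levels were low for H2-T-ps (0.181 to 0.730 CPM over all libraries) and H2-T24 (0.421 to 2.66 CPM). Of the exon windows of H2-T23, 126 also occurred in H2-T-ps and 85 in H2-T22. Whether this likeness links their values was not tested. The invariant chain Cd74 of the class II route, also chosen after its values were seen, was at 6.63 and 8.76 CPM in control, 20.1 to 22.1 in KO1 and 0.126 to 0.697 in KO2. It rose by 1.44 ± 0.49 in KO1 and fell by 4.14 ± 0.46 on the log2 scale in KO2 (edgeR, adjusted p = 0.0614 and 0.000872). Cd74 is one of the 9 genes of the leukocyte list and supplies part of its summed level. Of the others above 1 CPM, Cd68 was at 4.19 and 3.17 CPM in control, 11.4 to 28.3 in KO1 and 1.77 to 19.4 in KO2. Csf1r was at 5.44 and 4.94 CPM in control, 0.929 to 2.85 in KO1 and up to 8.64 in KO2. Cd68 thus lay above control and Csf1r below it in KO1, and the part of leukocytes in the values of the 9 genes was not tested.

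The study also mapped chromatin bound by MaTAR25 in cells that carry it, by ChIRP-seq, in which probes against the RNA pull down the DNA near it. The authors' peak lists were made from pooled replicates, so peaks carry no replicate error. In the list from the even probes 6 of the 9 genes were the nearest promoter of at least 1 peak, as were 52.9% of all genes tested by RNA-seq. The odd probes gave 6 of 9 against 52.4%, all probes together 8 of 9 against 59.6%, and NDL mammary tumour cells 6 of 9 against 58.0%. The labels give these FVB cells the genotype MMTV-PyMT, whereas the study's text describes NDL as MMTV-Neu-NDL, so their genotype is in doubt. The study's supplement calls the cells of this ChIRP-seq cNeu, which its methods list as a murine cell line. Whether they were primary cells or that line is therefore unclear. In each list the share of the 9 genes was above that of all tested genes, by the most with all probes together. With only 9 genes, this difference was not tested. At a score of at least 100, 1 of 9 genes kept a peak in each list, beside 18.5% to 26.1% of tested genes.

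Among the peaks of the 9 genes, one of Erap1 had the highest score in 3 of the 4 lists. It lies in an intron, at chr13:74682246-74683696 in the even list, with a score of 391.9 that ranked 521 of 64607 peaks. A peak at that place ranked 669 of 76806 with all probes and 400 of 70329 in NDL. The odd list assigned no such peak to it; its single Erap1 peak, at the promoter, had a score of 82.1. In the odd list the peak of H2-D1 had the highest score among those of the 9 genes, 991.1, which ranked 689 of 61311. It lies at chr17:35270628-35271548, in intergenic sequence downstream of the gene, and no peak there was assigned to it in the other lists. Tap1 had a peak in the even list (score 29.1) and one in the odd list (48.2), which do not overlap. Tap2 was the nearest promoter of no peak in either of these lists, and of a peak of 36.9 within an intron with all probes. Tapbp was the nearest promoter of no peak in any of the 4 lists. Peaks inside or within 10 kb of a gene were also counted. By that rule Tap2 had a peak in all 4 lists, and Tapbp had one in the odd list and with all probes. The share of all genes with a peak by that rule was not computed.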

How the data were processed

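RNA-seq of polyadenylated RNA (TruSeq v2) was analysed for 9 libraries. The authors mapped reads to GRCm38 with STAR and deposited raw counts per gene made with HTSeq-count and GENCODE vM5, without reads that align more than once; the read length and strand setting are not given in the sources used here. Rows that name no gene held 33.9% to 37.0% of records and were left out. The deposited ChIRP-seq peak lists give a HOMER score for each peak from pooled replicates, after Bowtie2 and against a Ppib control pulldown. Positions and exon lengths were taken from GENCODE vM21.

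Counts were filtered with filterByExpr, scaled by TMM and tested with edgeR 4.0.16 (quasi-likelihood, Benjamini-Hochberg adjustment over all 15023 genes, threshold 0.1, the study's own). KO against control was a fit of 2 groups; the other comparisons came from 1 fit of 3 groups. DESeq2 1.42.0 was an alternative. Single members were also compared by exact permutation of log2(CPM + 1). CPM are TMM-scaled throughout. The main script was tested on simulated data with 200 genes changed by 2 on the log2 scale: 86.3% of those tested were recovered for KO1 against control, 88.1% for KO2 against control and 92.9% for KO1 against KO2, with 11.8%, 8.06% and 7.61% false calls. For KO against control the figures were 96.9% and 10.6%. The simulated libraries had the spread of the 3-group fit for every gene and no difference between clones. In the real data edgeR's common coefficient of variation was 42.0% for KO against control and 32.5% in the 3-group fit. The recovered shares therefore do not hold for smaller changes, nor for KO against control in the real data.

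The members, lists and motifs were chosen with earlier results of these data known. Named genes were all members, MaTAR25, and the 5 genes outside the members most like each of H2-K1, B2m and Tap1. Of each list, at most the 5 called genes with the largest change over both knockouts and a mean of at least 1 CPM were named. Others are named as chosen after their values were seen. A few genes that these rules name are not reported here. The replicate numbers did not pair the libraries. Unique windows were counted by exact matching on both strands. Alternatives were another test, scaling, filter, threshold, grouping and pseudocount, the replicate block, summed H2 genes and each library left out.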

Additional observations from a re-analysis of the deposited data

Results flagged for a closer look

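The effects of the 2 knockout clones against the same controls differed for 4 of the 9 genes, by the test of the difference itself. These are the calls between the clones given above. Of all tested genes, 9.43% were called higher in KO1 and 19.6% in either direction. KO1 exceeded KO2 by 2.003 on the log2 scale for Tap2, 1.75 for Tap1, 0.99 for H2-T23 and 0.86 for Tapbp. All 3 KO1 libraries lay above all 4 KO2 libraries for each of these genes, as for 12.6% of all tested genes.

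Among the 7 knockout libraries, H2-D1 stood at 502 CPM in the first KO2 library, apart from the others by more than Dixon's limit. The other 6 knockout libraries lay between 266 and 363 CPM. Of 20 such checks on the 9 genes and the H2 sum, 1 library stood apart, and chance alone gives about 1 in 20.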

How the results depend on the processing

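The numbers of members called lower in KO2 (3) and higher in KO1 than in KO2 (4) were the same with DESeq2, RLE factors, a minimum of 10 counts, no filter, a threshold of 0.05 and a fit of the compared groups alone. With the H2 class I genes summed into 1 row, which merges H2-T23, they were 2 and 3. Leaving out 1 library gave 0 (without the second control library) to 5 (without the fourth KO2 library) members lower and 0 to 2 higher in KO2. Between the clones it gave 3 to 5 higher and 0 to 1 lower, the 1 being Nlrc5 without the third KO2 library. DESeq2 and no filter each called 1 member, Nlrc5, higher in KO2. For KO against control leaving out 1 library gave 0 to 1 higher, and the mean of the clones in the 3-group fit called 1 lower, H2-T23. With only control and KO1 fitted, 2 members rose and 1 fell (B2m, Tapbp, H2-D1), and 7752 genes in all were called against 4750. The cause was not tested.

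Calls over all genes ranged from 462 to 3976 (KO against control), 1482 to 3643 (KO1), 1366 to 5352 (KO2) and 874 to 4077 (KO1 against KO2) when 1 library was left out. At 0.05 they were 2235 for KO against control and 1643 between the clones, and with only the clones fitted 1932. The summed H2 genes were at -0.28 to -0.06, -0.25 to -0.06, -0.41 to -0.03 and -0.14 to 0.25 on the log2 scale. At a ChIRP score of at least 100, 1 member kept a peak in each list.

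The replicate numbers did not pair the libraries: same-numbered libraries correlated at -0.20 to 0.06 in their deviations. With the replicate block, KO against control was fitted only to the first and second libraries of each group. That fit called 1 member (B2m) higher and 1544 genes in all. It left out the third KO2 library, the lowest for B2m, so the block and the dropped libraries cannot be told apart. The other block fits used all libraries. They called 1 member (Tapbp) higher in KO1, 4 lower in KO2 and 5 higher in KO1 than in KO2 (Erap1 added in both). Between the clones 1736 genes in all were called. All 36 exact permutation tests stayed on their side of 0.05 with a pseudocount of 0.25. For KO1 and KO2 against control this was fixed in advance, because the smallest possible p was 0.1 and 0.0667. Only the tests of KO against control and of KO1 against KO2 could have crossed 0.05. Levels per kilobase over the longest transcript stayed within 1 SD for 15 of 27 values. H2-K1 moved in control, from 80.1 to 126 CPM per kilobase. The fewest counts of any member in a library were 82, for Tap1 in KO2.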
